A study of Homo sapiens with 6 samples.

Results

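Interferon-stimulated genes and RNA sensors were followed after CRISPR-Cas9 editing with a guide RNA (sgRNA) against POLK or with a non-targeting control sgRNA. The cells were A375, a widely used line from a human melanoma that carries an activating BRAF mutation. POLK encodes the error-prone DNA polymerase kappa. The members were 46 genes of the 16934 in the count table, taken by gene symbol from a list. They were 9 RNA sensors and enzymes that act on double-stranded RNA, 4 transcription factors and 33 effectors. The list was chosen with earlier results of these data known. The POLK sgRNA group and the control sgRNA group each held 3 libraries of the same line, grown in the same medium and edited with the same Alt-R CRISPR-Cas9 system, and no interferon or drug is named for either. The labels give no culture, clone or editing round for any library, and the table's column names share 1 stem per group, so p-values reflect how far these libraries differ among themselves, and that spread may be technical only. If the libraries of a group share 1 edited population, differences between populations and the effect of the POLK sgRNA cannot be told apart.

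Cells detect foreign or misplaced RNA with helicases such as RIG-I and MDA5, which signal through the adaptor MAVS to induce interferons. Secreted interferons bind receptors that act through the kinases JAK1 and TYK2 and assemble STAT2, IRF9 and a further STAT protein into a complex. That complex binds the interferon-stimulated response element in promoters and turns on the effector genes. Many tumour lines, melanoma lines among them, hold a low level of these transcripts without added interferon.

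Total counts were 46559658 to 56891905 in POLK sgRNA libraries and 42852645 to 55003324 in control libraries. No pair of libraries within a group agreed within counting noise (chi-square over degrees of freedom, 1.95 to 3.90). Counts per 1000000 reads assigned to genes (CPM, on library sizes scaled by edgeR's TMM method) are used for levels. Checking the targeted gene first, POLK had 19.2, 17.2 and 18.1 CPM in the 3 POLK sgRNA libraries, against 23.4, 24.0 and 22.4 CPM in the 3 control libraries (log2 fold change −0.36, SE 0.05, adjusted p 7.9e-08 in edgeR's test, Benjamini-Hochberg over all tested genes). Its transcript was lower in every POLK sgRNA library but still present, and 33.1% of all genes tested also lay below every control library. Counts over a whole gene do not show which alleles were edited. The melanocyte lineage factor gene SOX10 had 1155 CPM with the POLK sgRNA and 1060 CPM with the control sgRNA on average. Of 7 tested melanocyte lineage markers 5 rose, SOX10, MITF, PMEL, S100B and S100A1, and 0 fell. Of all genes tested 32.8% rose and 31.6% fell. For PMEL the groups overlapped in single libraries. S100A1, which encodes a calcium-binding protein, had the largest ratio of the 5, at 58.3 CPM with the POLK sgRNA and 19.2 CPM with the control sgRNA. The pigment genes PMEL, MLANA, TYR and DCT averaged under 1 CPM in each group. Control library 1 stood apart from the other control libraries for 2 of these, with 64 counts of DCT against 2 and 1, and 19 counts of TYR against 0 and 0. The part of these differences in the members' values was not tested.

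Start regions of the members were searched for the letters of the interferon-stimulated response element. RefSeq start regions (250 bases before to 50 after a transcript's first base, build GRCh38.p14) were matched to 37 of the 46 members, DDX58 through its newer symbol RIGI. The core of the response element is GAAA repeated after 2 bases of any kind (the longer spacing). It was searched on both strands, and so were GAAANGAAA (the shorter spacing) and the palindrome TTCNNNGAA, which STAT dimers bind. Matches may overlap each other. The first 5 regions shown belong to the 5 members with the largest fold changes among those with a start region, OAS1, OAS3, HERC5, IFI35 and XAF1. The other 3 belong to relatives in the IFIT cluster, of which IFIT5 did not pass the test. Each runs from 190 bases before a RefSeq transcript start to 10 bases past it, and capitals mark every match to the 3 patterns. IFIT3 and XAF1 have 2 start regions each, and the one shown begins inside the gene as GENCODE 29 draws it.
OAS1, chr12:112906772-112906971, plus strand: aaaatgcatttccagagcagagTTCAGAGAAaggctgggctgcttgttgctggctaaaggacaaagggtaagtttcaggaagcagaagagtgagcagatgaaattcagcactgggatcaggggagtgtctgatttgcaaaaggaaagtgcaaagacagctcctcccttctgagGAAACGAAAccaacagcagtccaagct
OAS3, chr12:112938284-112938483, plus strand: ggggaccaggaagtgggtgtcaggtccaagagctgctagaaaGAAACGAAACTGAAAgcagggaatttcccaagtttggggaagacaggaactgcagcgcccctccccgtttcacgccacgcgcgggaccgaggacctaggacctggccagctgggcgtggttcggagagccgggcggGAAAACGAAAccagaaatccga
HERC5, chr4:88456929-88457128, plus strand: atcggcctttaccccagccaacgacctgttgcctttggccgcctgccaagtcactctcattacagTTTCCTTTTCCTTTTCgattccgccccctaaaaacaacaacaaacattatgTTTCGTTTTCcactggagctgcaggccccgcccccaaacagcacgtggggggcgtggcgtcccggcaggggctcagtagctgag
IFI35, chr17:43006594-43006793, plus strand: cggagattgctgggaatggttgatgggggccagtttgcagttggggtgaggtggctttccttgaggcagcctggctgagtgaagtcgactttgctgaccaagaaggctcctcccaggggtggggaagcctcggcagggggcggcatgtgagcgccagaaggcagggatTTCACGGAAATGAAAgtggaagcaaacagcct
XAF1, chr17:6755856-6756055, plus strand: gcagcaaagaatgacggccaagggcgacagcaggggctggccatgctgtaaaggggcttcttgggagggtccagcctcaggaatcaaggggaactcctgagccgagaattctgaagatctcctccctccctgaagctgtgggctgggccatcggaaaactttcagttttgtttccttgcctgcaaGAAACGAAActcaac
IFIT1, chr10:89392433-89392632, plus strand: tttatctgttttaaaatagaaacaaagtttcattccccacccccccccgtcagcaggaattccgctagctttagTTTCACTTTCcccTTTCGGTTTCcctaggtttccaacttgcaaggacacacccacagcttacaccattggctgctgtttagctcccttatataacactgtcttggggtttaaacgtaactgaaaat
IFIT3, chr10:89332339-89332538, plus strand: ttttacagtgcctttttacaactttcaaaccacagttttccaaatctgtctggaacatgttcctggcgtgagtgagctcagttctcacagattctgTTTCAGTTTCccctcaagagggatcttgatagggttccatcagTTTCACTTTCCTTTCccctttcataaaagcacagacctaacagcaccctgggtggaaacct
IFIT5, chr10:89414378-89414577, plus strand: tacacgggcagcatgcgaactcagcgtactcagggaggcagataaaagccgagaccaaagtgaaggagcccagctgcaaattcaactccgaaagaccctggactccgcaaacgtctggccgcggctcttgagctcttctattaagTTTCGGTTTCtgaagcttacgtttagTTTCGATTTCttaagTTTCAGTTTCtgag
OAS1, IFI35 and XAF1 held the shorter spacing close to the start, at -17, -16 and -5 counted from that start. The shorter spacing was also present in OAS3 at -148 and in the region shown for IFIT3 at -45. OAS3 held the longer spacing at -143 and -12, HERC5 at -125, -119 and -74, IFIT1 at -116 and -103, IFIT3 at -94 and -51 in the region shown and at -156 and -122 in its other start region, and IFIT5 at -45, -19 and -4. The longer spacing was found for 23 of the 37 members (62.2%), against 4.38% of all 27305 genes with a start region and 3.57% of all 35116 regions. The shorter spacing was found for 13 members (35.1%), against 3.87% of all genes, and TTCNNNGAA for 10 (27.0%), against 9.38%. The members were listed as interferon-stimulated genes and RNA sensors, so a high share of this element goes with the choice of the list. These shares use no counts and say nothing about the POLK sgRNA. A match is a run of letters and was not tested as a binding site.

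The members were mostly higher in cells that received the POLK sgRNA, and none was called lower. Of 45 members with enough counts for a test, 31 rose (68.9%) and 0 fell. The test was edgeR's quasi-likelihood test, with p-values adjusted by Benjamini-Hochberg over all 13930 genes tested and called at 0.05. Among all genes tested, 32.8% rose and 31.6% fell, together 64.3%. Since the members were chosen with earlier results of these data known, the shares are set side by side as a description. At an unadjusted p under 0.05, 0 members were lower in edgeR, 0 in limma-voom and 1 in DESeq2, and after adjustment 0 were lower with any of the 3. The median log2 fold change was 0.32 over the 45 members and 0.01 over all genes tested. Summed over the 46 members, the level was 2126, 2139 and 2119 CPM in the POLK sgRNA libraries, against 1809, 1815 and 1833 CPM in the control libraries. The POLK sgRNA libraries lay above every control library for 32 members (background 34.6%) and below every control library for 1, ADAR (background 33.1%), each among the 45 tested. IFI44L, with 7, 9 and 10 counts in POLK sgRNA libraries and 3, 2 and 5 in control libraries, was the member with too few counts for a test. In bulk RNA, more RNA per cell and more cells that express a gene cannot be told apart.

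**Figure D1:**
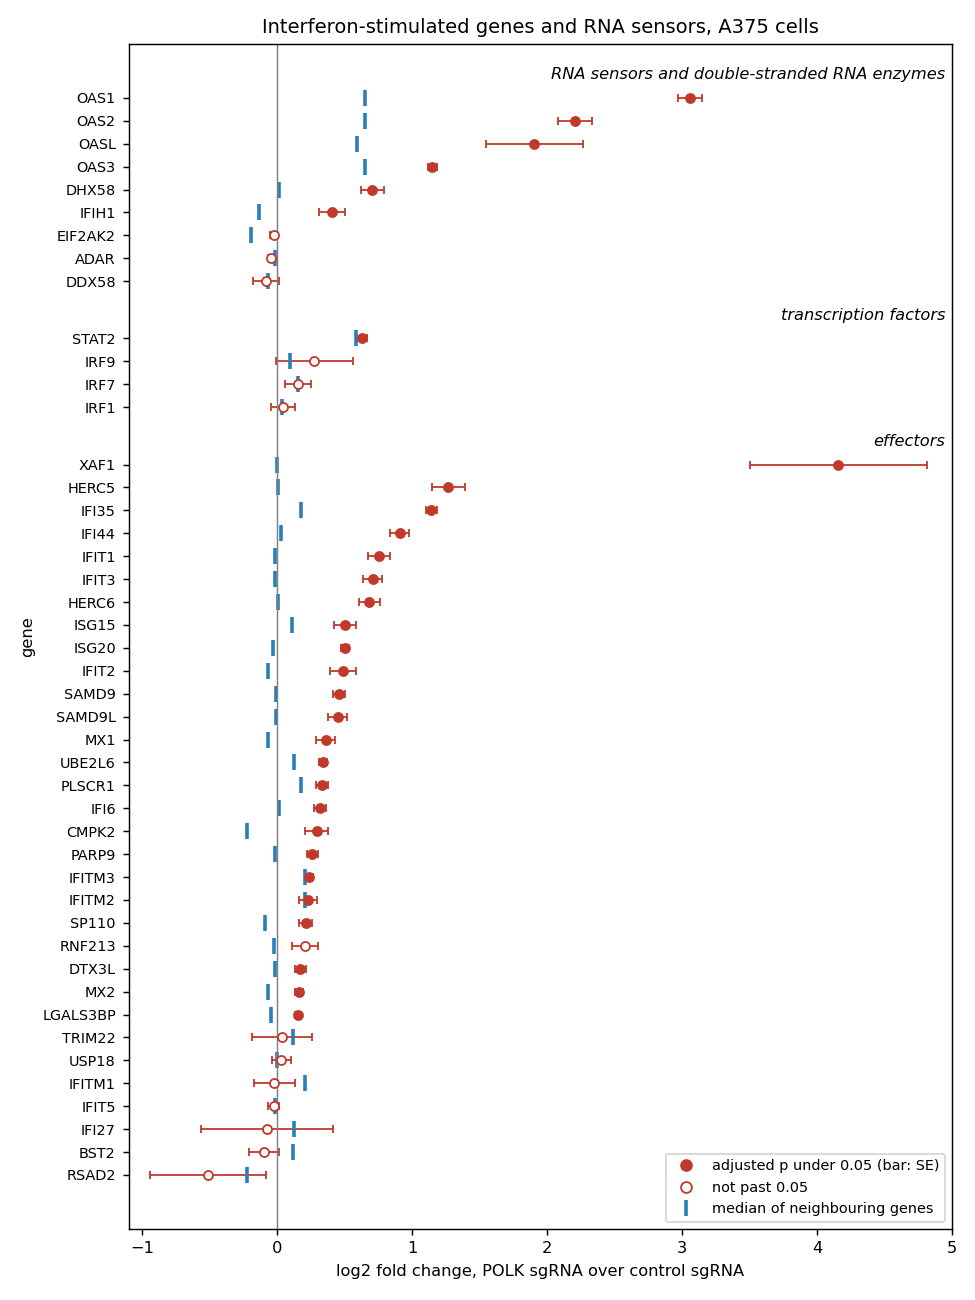
Log2 fold change (POLK sgRNA over control sgRNA, x axis) of the 45 tested members, by role, with 1 row per gene. Circles are fitted values with their standard error, filled where the adjusted p is under 0.05, and blue ticks give the median of the neighbouring genes. All 31 filled circles lie right of 0.

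**Figure D2:**
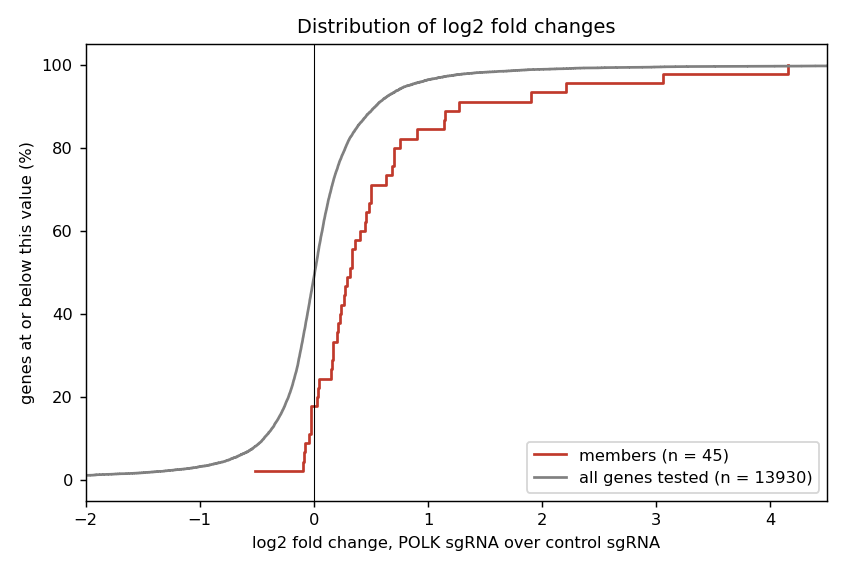
Cumulative share (y axis, %) of genes at or below each log2 fold change (x axis) for the 45 tested members in red and all 13930 tested genes in grey. The member curve lies to the right, with a median of 0.32 against 0.01. Values beyond the axis limits are not drawn.

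Among the RNA sensors and double-stranded RNA enzymes, 6 of 9 rose and 0 fell, against 32.8% and 31.6% of all genes tested. The oligoadenylate synthetase genes had the largest differences. These enzymes make a short adenylate chain on contact with double-stranded RNA. OAS1 (ENSG00000089127, chromosome 12, 112906777 to 112933222, plus strand, GRCh38) had 11.6, 11.1 and 11.3 CPM in POLK sgRNA libraries, against 1.40, 1.36 and 1.33 CPM in control libraries. Every POLK sgRNA library was thus well above every control library, on average 8.32-fold (log2 fold change 3.06, SE 0.09, adjusted p 1.6e-24 in edgeR's test). OAS2, its neighbour (112978395 to 113011723), had 5.37, 6.30 and 5.74 CPM with the POLK sgRNA, against 1.07, 1.1 and 1.58 CPM with the control sgRNA. Control library 3 was the highest of its group, and the groups stayed apart, with a log2 fold change of 2.21 (SE 0.12). OAS3, which lies between them (112938352 to 112973249), had 96.5, 94.9 and 89.7 CPM in POLK sgRNA libraries, against 42.1, 43.0 and 41.7 CPM in control libraries. Its log2 fold change was 1.15 (SE 0.03, adjusted p 3.1e-25 in edgeR's test). OASL, a relative without synthetase activity that enhances RIG-I signalling, rested on 25, 20 and 23 counts with the POLK sgRNA and 4, 6 and 7 with the control sgRNA (log2 fold change 1.91, SE 0.36).

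The order of the OAS levels was the same in both groups, although their fold changes ran in another order. Per kilobase of exon, mean levels in POLK sgRNA libraries were 11.4 CPM for OAS3, 2.29 for OAS1, 0.927 for OAS2 and 0.126 for OASL. In control libraries they were 5.12 CPM per kilobase for OAS3, 0.275 for OAS1, 0.200 for OAS2 and 0.0331 for OASL. Reads from such close relatives can be divided between them by the counting.

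Of the 3 helicase sensor genes, DHX58 and IFIH1 rose. DHX58, which encodes LGP2, the relative of RIG-I that lacks a signalling domain, had 6.07, 6.35 and 6.0 CPM in POLK sgRNA libraries, against 3.64, 3.66 and 3.98 CPM in control libraries. It rose by a log2 fold change of 0.71 (SE 0.09, adjusted p 8.1e-09 in edgeR's test). IFIH1, the gene for MDA5, had 3.99, 3.76 and 4.18 CPM with the POLK sgRNA and 3.06, 3.00 and 2.96 CPM with the control sgRNA, again with no overlap (log2 fold change 0.41, SE 0.10, adjusted p 0.00056 in edgeR's test). DDX58, the gene for RIG-I, did not pass, at 3.59, 3.95 and 3.57 CPM in POLK sgRNA libraries and 4.01, 3.90 and 3.83 CPM in control libraries (log2 fold change −0.08, SE 0.09). The differences between the fold changes of these 3 genes were not tested.

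The remaining enzymes of double-stranded RNA, EIF2AK2 and ADAR, did not pass the test. EIF2AK2 encodes PKR, the kinase that stops translation, and its level was 106 ± 2.6 CPM with the POLK sgRNA and 108 ± 0.43 CPM with the control sgRNA (SD, n = 3; log2 fold change −0.03, SE 0.03). ADAR, which encodes the enzyme that edits adenosine to inosine in double-stranded RNA, had 356 ± 2.1 CPM with the POLK sgRNA and 367 ± 5.5 CPM with the control sgRNA (log2 fold change −0.04, SE 0.02, adjusted p 0.087 in edgeR's test). ADAR had the highest level per kilobase of the sensors, 36.7 CPM with the POLK sgRNA and 37.8 with the control sgRNA. Exons of EIF2AK2 share 3.73% of their length with a pseudogene on the other strand, and the library kit does not mark strand.

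**Figure D3:**
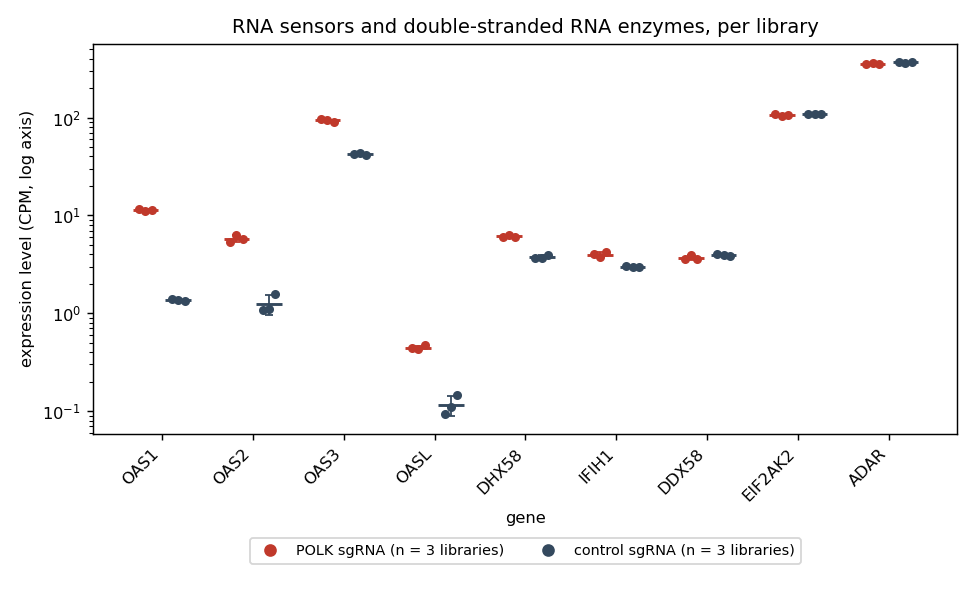
Level of the 9 RNA sensors and double-stranded RNA enzymes in each library (CPM, log axis), with POLK sgRNA libraries in red and control libraries in dark blue, side by side per gene. Points are libraries, lines are means and bars are SD (n = 3). OAS1, OAS2, OAS3, OASL, DHX58 and IFIH1 do not overlap between groups in the direction of POLK sgRNA, which held for 34.6% of all genes tested.

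Of the 4 transcription factor genes, STAT2 passed the test. It had 42.4, 42.2 and 43.2 CPM in POLK sgRNA libraries, against 28.6, 27.0 and 27.1 CPM in control libraries. The groups were far apart, with a log2 fold change of 0.63 (SE 0.04, adjusted p 2.2e-16 in edgeR's test). STAT2 lies on chromosome 12 (56341597 to 56360155, minus strand), where its 20 nearest measured neighbours had a median log2 fold change of 0.58. IRF9, the DNA-binding partner of STAT2, was at 0.465 ± 0.13 CPM with the POLK sgRNA and 0.378 ± 0.075 CPM with the control sgRNA (SD, n = 3) and did not pass. Of its exon length 48.4% is shared with another annotated gene on the same strand, so its counts are uncertain. IRF7, which amplifies interferon production, had 4.25, 4.10 and 4.10 CPM in POLK sgRNA libraries and 4.08, 3.53 and 3.64 CPM in control libraries. Its groups were apart by a small margin, and it did not pass (log2 fold change 0.15, SE 0.09, adjusted p 0.16 in edgeR's test). IRF1, an early activator that also answers interferon gamma, had 5.57 ± 0.42 CPM with the POLK sgRNA and 5.40 ± 0.61 CPM with the control sgRNA, in overlapping groups (log2 fold change 0.04, SE 0.09). IRF1 shares 22% of its exon length with an annotated transcript on the other strand.

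Effector genes rose in 24 of 32 tested members (75.0%), with 0 lower, against 32.8% and 31.6% of all genes tested. The same shares apply to the families below, each of which holds few genes. Of 5 genes grouped here with the ISG15 system, which attaches a ubiquitin-like protein to other proteins, 4 rose. HERC5, the main ISG15 ligase gene, had 5.11, 4.96 and 5.43 CPM in POLK sgRNA libraries, against 2.82, 1.90 and 1.79 CPM in control libraries. Control library 1 stood above the other control libraries and still below every POLK sgRNA library (log2 fold change 1.27, SE 0.12, adjusted p 2.3e-10 in edgeR's test). HERC6, a ligase gene next to it on chromosome 4, had 7.98, 8.19 and 7.92 CPM with the POLK sgRNA and 4.62, 4.80 and 5.56 CPM with the control sgRNA (log2 fold change 0.68, SE 0.08). ISG15 itself had 6.77, 7.39 and 6.92 CPM in POLK sgRNA libraries and 5.06, 4.63 and 5.21 CPM in control libraries (log2 fold change 0.50, SE 0.08). UBE2L6, the conjugating enzyme gene of the system, rose to 77.6 ± 1.6 CPM with the POLK sgRNA, against 61.3 ± 2.3 CPM with the control sgRNA (SD, n = 3). USP18, the protease gene that removes ISG15 and dampens the receptor, did not pass, at 7.84 ± 0.29 CPM with the POLK sgRNA and 7.67 ± 0.25 CPM with the control sgRNA (log2 fold change 0.03, SE 0.07).

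The IFIT genes, which encode proteins that bind the ends of foreign RNA, lie together on chromosome 10. IFIT1 had 7.72, 7.54 and 7.27 CPM in POLK sgRNA libraries, against 4.78, 4.69 and 3.89 CPM in control libraries (log2 fold change 0.75, SE 0.08). IFIT3, its binding partner, had 10.8, 10.1 and 11.4 CPM with the POLK sgRNA and 6.89, 6.48 and 6.46 CPM with the control sgRNA (log2 fold change 0.71, SE 0.07). Both rose, and so did IFIT2, which had 4.17, 4.77 and 4.14 CPM in POLK sgRNA libraries and 3.01, 3.19 and 3.08 CPM in control libraries (log2 fold change 0.49, SE 0.10). IFIT5, in the same cluster, had 35.0, 32.9 and 35.5 CPM with the POLK sgRNA and 35.6, 36.0 and 33.6 CPM with the control sgRNA (log2 fold change −0.02, SE 0.04). Its start region, printed above, holds 3 matches to the longer spacing. The 20 neighbours around IFIT1, IFIT3 and IFIT5 had a median log2 fold change of −0.02.

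Of the membrane proteins, 3 of 5 rose, by small amounts. IFITM3, which blocks fusion of entering viruses, had 199, 202 and 202 CPM in POLK sgRNA libraries, against 164, 170 and 176 CPM in control libraries (log2 fold change 0.24, SE 0.03). IFITM3 shares 21.3% of its exon length with an annotated transcript on the other strand. IFITM2 rose as well, at 22.2 ± 1.9 CPM with the POLK sgRNA and 18.8 ± 1.5 CPM with the control sgRNA (SD, n = 3), although its groups overlapped in single libraries (adjusted p 0.0059 in edgeR's test). IFITM1, at 1.53 ± 0.27 CPM with the POLK sgRNA and 1.55 ± 0.09 CPM with the control sgRNA, did not pass, and since it shares 32.5% of its exon length with IFITM2, reads of these close relatives may be split. PLSCR1, a scramblase gene, rose by a log2 fold change of 0.33 (SE 0.04). BST2, which encodes tetherin, had 3.75, 3.85 and 4.45 CPM with the POLK sgRNA and 3.76, 3.88 and 5.21 CPM with the control sgRNA and did not pass.

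Both genes for dynamin-like antiviral GTPases rose. MX1 had 10.2, 10.1 and 11.0 CPM in POLK sgRNA libraries, against 7.54, 8.19 and 8.66 CPM in control libraries (log2 fold change 0.36, SE 0.07, adjusted p 2e-05 in edgeR's test). MX2, beside it on chromosome 21, had 76.1 ± 2.8 CPM with the POLK sgRNA and 68.0 ± 0.25 CPM with the control sgRNA (SD, n = 3; log2 fold change 0.16, SE 0.03). Per kilobase of exon MX2 was the higher of the pair, at 5.83 against 1.21 CPM with the POLK sgRNA.

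Among nucleotide and RNA enzymes, ISG20, an exonuclease gene, had 85.7, 88.6 and 87.8 CPM with the POLK sgRNA and 59.2, 62.1 and 63.8 CPM with the control sgRNA (log2 fold change 0.50, SE 0.03). CMPK2, a mitochondrial nucleotide kinase gene, and RSAD2, which encodes viperin, start beside each other on chromosome 2 in opposite directions. Their start regions share the GAAANGAAA matches that begin at 6865801 and 6865825. CMPK2 rose by a log2 fold change of 0.29 (SE 0.08, adjusted p 0.0025 in edgeR's test), to 5.57 ± 0.22 CPM with the POLK sgRNA against 4.55 ± 0.04 CPM with the control sgRNA. RSAD2 had 13, 2 and 10 counts in POLK sgRNA libraries and 13, 12 and 9 in control libraries, and did not pass (log2 fold change −0.51, SE 0.43). Without POLK sgRNA library 2 its log2 fold change was −0.11, and without POLK sgRNA library 1 it was −0.89.

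PARP9 and DTX3L, which encode partner proteins in ADP-ribosylation and ubiquitination, also start in opposite directions beside each other, on chromosome 3, and share 1 match to the longer spacing at 122564332 to 122564341. PARP9 rose to 31.0 ± 1.7 CPM with the POLK sgRNA against 25.9 ± 0.89 CPM with the control sgRNA, and DTX3L to 34.7 ± 1.1 CPM with the POLK sgRNA against 30.8 ± 0.97 CPM with the control sgRNA (SD, n = 3). Their log2 fold changes were 0.26 (SE 0.04) and 0.17 (SE 0.04).

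Of 6 genes for growth and viral restriction, 4 rose. XAF1, which encodes a partner of the apoptosis inhibitor XIAP, had 20, 11 and 13 counts in POLK sgRNA libraries, against 1, 1 and 0 in control libraries. On depth-scaled counts the ratio was 20.9, with an exact 95% interval of 5.46 to 178 that covers counting error only. Its exons share 38.3% of their length with an annotated transcript on the other strand. SAMD9 had 29.7, 28.3 and 29.3 CPM in POLK sgRNA libraries and 21.3, 21.5 and 20.7 CPM in control libraries (log2 fold change 0.46, SE 0.04). SAMD9L, its neighbour and relative on chromosome 7, had 8.19, 8.40 and 8.0 CPM with the POLK sgRNA and 6.16, 6.04 and 5.83 CPM with the control sgRNA (log2 fold change 0.45, SE 0.07). These antiproliferative, antiviral genes thus had nearly equal fold changes. SP110, a nuclear body gene, rose by a log2 fold change of 0.21 (SE 0.05), and 18.4% of its exon length is shared with an antisense transcript. TRIM22, a ubiquitin ligase gene, was at 0.629 ± 0.075 CPM with the POLK sgRNA and 0.612 ± 0.047 CPM with the control sgRNA and did not pass. RNF213, a giant ubiquitin ligase gene, had 142, 159 and 126 CPM in POLK sgRNA libraries, against 125, 120 and 125 CPM in control libraries. POLK sgRNA library 2 was the highest and library 3 close to control, and the call depended on them: the adjusted p in edgeR's test was 0.14, 0.030 without POLK sgRNA library 2 and 3.2e-06 without POLK sgRNA library 3.

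Among the IFI genes 3 of 4 tested members rose. IFI35, which encodes a cytosolic protein induced by interferon, had 37.3, 36.1 and 37.0 CPM in POLK sgRNA libraries, against 16.7, 16.0 and 17.3 CPM in control libraries (log2 fold change 1.14, SE 0.04, adjusted p 5.3e-22 in edgeR's test). IFI44 had 11.2, 12.4 and 13.1 CPM with the POLK sgRNA and 6.98, 6.54 and 6.04 CPM with the control sgRNA (log2 fold change 0.91, SE 0.07). IFI6, which encodes a membrane protein that limits apoptosis, rose by a log2 fold change of 0.32 (SE 0.04). IFI27 had 7, 5 and 13 counts in POLK sgRNA libraries and 12, 3 and 10 in control libraries and did not pass. LGALS3BP, a secreted galectin-binding glycoprotein gene, had 550 ± 6.5 CPM with the POLK sgRNA and 494 ± 6.3 CPM with the control sgRNA (SD, n = 3). It was the member with the highest CPM in both groups, and it had a log2 fold change of 0.16 (SE 0.02).

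**Figure D4:**
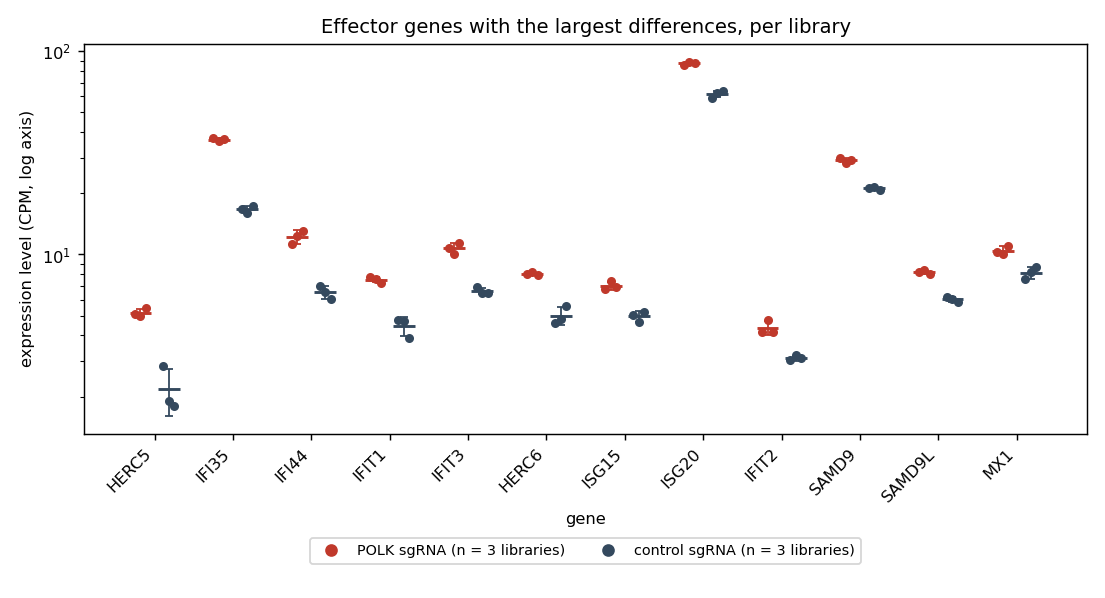
Level of 12 effector genes in each library (CPM, log axis), POLK sgRNA libraries in red left of control libraries in dark blue. Points are libraries, lines are means and bars are SD (n = 3). The 12 were picked as the called effectors of at least 1 CPM with the largest fold changes. For each of them the lowest red point lies above the highest blue point, as it does for 34.6% of all genes tested.

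Some members lie in stretches of chromosome where most measured genes were shifted. For each member the median log2 fold change of the 10 nearest tested genes on each side that were not members and had at least 1 CPM was taken from GENCODE 29 positions (fewer than 10 near a chromosome end). On chromosome 12 these medians were 0.65 around OAS1, OAS2 and OAS3, 0.59 around OASL and 0.58 around STAT2, and all 20 neighbours of each had risen. Relative to its neighbours OAS1 was higher by 2.40, OAS2 by 1.55, OASL by 1.31, OAS3 by 0.50 and STAT2 by 0.05 on the log2 scale. IFITM3 and IFITM2, on chromosome 11, had neighbours at 0.21 and differed from them by 0.03 and 0.02. The median was 0.18 around IFI35, 0.18 around PLSCR1, 0.12 around UBE2L6 and 0.11 around ISG15. These genes were higher than their neighbours by 0.96, 0.16, 0.22 and 0.39 in that order. Around HERC5 and HERC6 the median was 0.00, around XAF1 0.00, around SAMD9 and SAMD9L −0.01 and around IFI44 0.03. CMPK2 and RSAD2 lay among neighbours with a median of −0.22, of which 19 of 20 had fallen.

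Away from chromosome 12, 26 of 40 tested members rose (65.0%) and 0 fell, against 32.8% and 31.6% of all genes tested. The median of these 40 members was 0.27 on the log2 scale. Of 25 tested members whose neighbours had a median between −0.1 and 0.1, 18 rose. Of 16 with a neighbour median over 0.1, 11 rose, and of 4 with one under −0.1, 2 rose. Over the 45 tested members, 37 were above their neighbours' median, and the median difference of the 45 was 0.28 on the log2 scale. Some of the 37 were barely above, such as IRF7 by 0.0003 and STAT2 by 0.05. Called higher and above by 0.1 or more were 28. The share of all genes that lie above their own neighbours was not computed. The part of the shifted neighbourhoods in the members' differences was not tested.

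**Figure D5:**
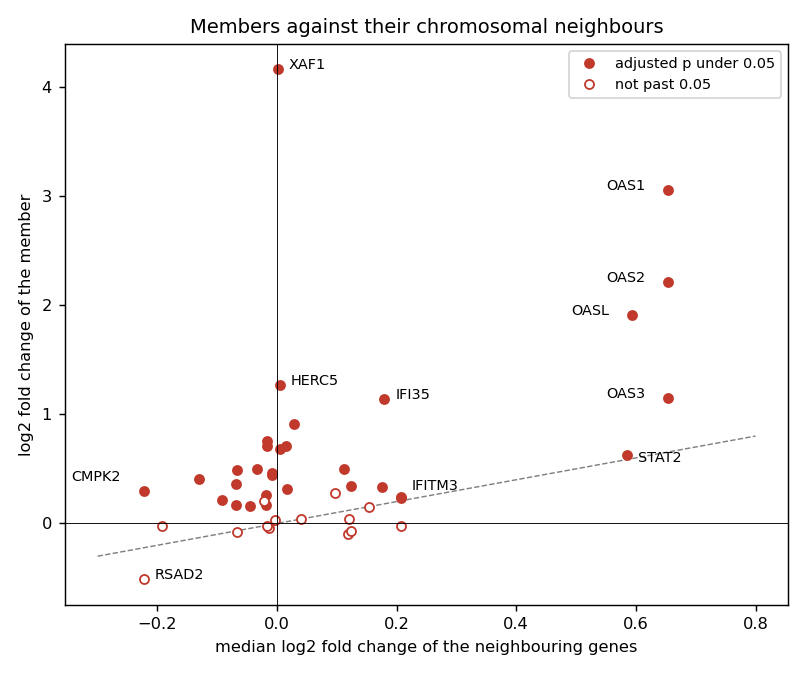
Log2 fold change of each tested member (y axis) against the median log2 fold change of its chromosomal neighbours (x axis). Filled circles have an adjusted p under 0.05, and the dashed line marks equal values. OAS1, OAS2, OASL and OAS3 lie above the line at neighbour medians of 0.59 to 0.65, and STAT2 lies close to it. XAF1, at the top, rests on few counts.

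The calls were also set beside the start regions. Of 28 tested members with either spacing, 21 rose (75.0%), and of 8 with a start region and neither spacing, 4 rose, among them STAT2, HERC6, UBE2L6 and SAMD9L. EIF2AK2, IFIT5, IFITM1, BST2, IFI27, RSAD2 and DDX58 held a match and did not pass. Among tested genes that were not members, 292 of 777 with either spacing rose (37.6%) and 207 fell (26.6%). Of 10557 without them 3375 rose (32.0%) and 3412 fell (32.3%). These shares are given as a description, and the difference was not tested.

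Of 77 other listed genes of the pathway, 47 were tested. Of these 23 rose (48.9%) and 11 fell (23.4%), against 32.8% and 31.6% of all genes tested. Of 21 interferon genes listed, 18 matched no row by symbol and were not analysed here. Of the 3 that were, IFNA1 and IFNA8 each had 2 counts summed over the POLK sgRNA libraries and 0 in the control libraries, and IFNE had 25 in the POLK sgRNA libraries and 12 in the control libraries. Among 9 receptor and kinase genes 3 rose (33.3%) and 2 fell (22.2%), a share of higher genes near that of all genes tested. IFNLR1, the interferon lambda receptor chain, fell to 7.63 ± 0.20 CPM with the POLK sgRNA, against 12.7 ± 0.18 CPM with the control sgRNA. TYK2 rose to 148 ± 3.4 CPM with the POLK sgRNA against 125 ± 4.0 CPM with the control sgRNA (SD, n = 3), and IFNGR1 fell (log2 fold change −0.19).

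Of 13 adaptor genes of RNA sensing 7 rose (53.8%) and 3 fell (23.1%), against 32.8% and 31.6% of all genes tested. MAVS rose to 150 ± 2.3 CPM with the POLK sgRNA, against 101 ± 1.2 CPM with the control sgRNA, a log2 fold change of 0.58. The kinase genes TBK1, on chromosome 12, and IKBKE, both of which activate IRF3, rose by 0.50 and 0.56 on the log2 scale. Of 7 tested DNA sensing genes 6 rose and 0 fell, among them AIM2 at 17.3 ± 0.25 CPM with the POLK sgRNA against 6.34 ± 0.38 CPM with the control sgRNA, TMEM173 (STING) with a log2 fold change of 0.34 and RNASEH2A with 0.24. The sensor gene MB21D1 (cGAS) was at 0.0126 CPM with the POLK sgRNA and 0.0130 CPM with the control sgRNA and was not tested.

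Genes of RNA turnover and editing fell in 5 of 7 and rose in 2, against 31.6% and 32.8% of all genes tested. Of those that fell, ZC3HAV1, PRKRA and TTC37 had small log2 fold changes, at −0.17, −0.12 and −0.07. SKIV2L, a helicase gene of cytoplasmic RNA decay, rose by a log2 fold change of 0.33, PNPT1, which degrades mitochondrial RNA, fell to 83.4 ± 3.0 CPM with the POLK sgRNA against 103 ± 1.2 CPM with the control sgRNA, and ADARB1 fell to 17.6 ± 0.24 CPM with the POLK sgRNA against 23.8 ± 1.5 CPM with the control sgRNA. Among 8 genes that dampen the response 3 rose (37.5%, against 32.8% of all genes tested) and 1 fell. Those that rose include TRIM21 with 0.42 and NLRX1 with 0.17, and SOCS3 fell (log2 fold change −0.41). Of 3 tested interferon gamma effector genes, GBP1 rose to 8.78 ± 0.44 CPM with the POLK sgRNA, against 3.80 ± 0.23 CPM with the control sgRNA, and GBP2 rose by a log2 fold change of 0.27. CXCL9, CXCL10 and CXCL11 were each under 0.1 CPM in both groups.

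Markers of other cell types were measured beside the members. The summed level of 11 leukocyte markers was 1799 to 1814 CPM in POLK sgRNA libraries and 1069 to 1132 CPM in control libraries, with 3 of 4 tested markers higher (CD74, CD68 and LYZ) and 1 lower (CD14). Most of it was CD74, the invariant chain gene that melanoma cells also express, at 1746 CPM with the POLK sgRNA and 1084 CPM with the control sgRNA. The defining gene PTPRC was at 0.0311 CPM with the POLK sgRNA and 0.0269 CPM with the control sgRNA, and CD3E was at 0.0071 CPM with the POLK sgRNA and 0.0130 CPM with the control sgRNA. Of 6 markers of plasmacytoid dendritic cells, which make interferon, 3 were measured, with a sum of 16.9 to 18.6 CPM in POLK sgRNA libraries and 15.9 to 17.7 CPM in control libraries, nearly all of it TCF4 (0 higher, 1 lower). The sum of 4 fibroblast markers was 26.5 to 26.7 CPM in POLK sgRNA libraries and 14.8 to 15.1 CPM in control libraries (3 higher), and that of 4 endothelial markers 5.57 to 6.04 CPM in POLK sgRNA libraries and 2.93 to 3.90 CPM in control libraries (3 higher, 1 lower). For comparison, 32.8% of all genes tested were higher and 31.6% lower. LYZ, the fibroblast markers DCN and LUM and the endothelial marker VWF lie on chromosome 12. Their log2 fold changes were 2.53, 3.61, 3.40 and 0.57, and DCN rests on 5, 5 and 3 counts in control libraries. Their part in the members' differences was not tested.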

How the data were processed

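RNA was sequenced from 6 libraries of A375 cells. Per the labels' protocols, mRNA libraries were made with the TruSeq RNA V2 kit. FastQC, Trimmomatic, STAR and DESeq2 with build GRCh38 were used, per the submitters' processing notes. For the counting tool and annotation, nothing is given in the sources used here. Raw counts per gene, not normalized, were deposited by the authors for 16934 genes. Columns were matched to samples by name.

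Counts were analysed in R 4.3.3 with edgeR 4.0.16. Genes passing filterByExpr (minimum count 10, minimum total 15; 13930 genes, 82.3%) were compared between groups by the quasi-likelihood test (robust, two-sided, TMM, no covariate), with adjustment over all genes tested. Each SE is |log2 fold change| / sqrt(F). DESeq2 1.42.0 and limma-voom (limma 3.58.1) were alternatives. The code was first tested on simulated data.

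Lengths per kilobase are unions of GENCODE 29 exons, and 13923 tested genes had a position. Start regions came from RefSeq (GRCh38.p14). Every member is named. Values per library are given for POLK, for called members of at least 1 CPM in order of fold change, up to 6 sensors, 4 factors and 12 effectors, and for some others chosen after their values were seen. For other pathway lists the 3 called genes with the smallest p are named, and a few more were chosen after their values were seen. The members and lists were chosen with earlier results of these data known. Since the kit does not mark strand, reads of antisense partners cannot be separated, and paralogs or overlapping genes are uncertain. One item among the other pathway genes is not reported here by name.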

Additional observations from a re-analysis of the deposited data

How the results depend on the processing

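The 31 members called higher were each called higher under every alternative that tested them: DESeq2 size factors, library size alone, no filter, the replicate number as a block, DESeq2, limma-voom, omission of any 1 library and, for the 29 of them that it tested, a mean of at least 1 CPM. Counts of higher members ranged from 31 to 32 and of lower members were 0 when libraries were left out in turn, and 26 and 0 without chromosome 12. With the replicate block 31 members and 4483 genes were higher, and deviations of same-numbered libraries correlated by −0.03, −0.03 and −0.04 across genes, so the numbers were not taken as pairs. Members that did not pass changed sign when single libraries were left out, within −0.044 to 0.13 for IRF1, −0.060 to 0.0073 for IFIT5, −0.17 to 0.062 for IFITM1, −0.18 to 0.062 for BST2, −0.059 to 0.10 for TRIM22 and −0.57 to 0.36 for IFI27, which limma-voom also put at 0.069 (log2 fold changes). RNF213 was called under limma-voom (adjusted p 0.0025) and when POLK sgRNA library 2 or 3 was left out. The cause was not tested. The median of all genes lay between 0.00 and 0.02 across scalings. Members under about 1 CPM (RSAD2, IFI27, IFI44L, IRF9, TRIM22, OASL and XAF1) rest on few counts, so their depth limits what can be seen.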
